A study of Mus musculus with 2 samples.

Results

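The synaptonemal complex and HORMA domain genes of mouse meiosis were examined in RNA from testis. The 10 members are Sycp1, Sycp2, Sycp3, Syce1, Syce2, Syce3, Six6os1 (4930447C04Rik in RefSeq), Hormad1, Hormad2 and Trip13. They were chosen by symbol, and all 10 had a row, by Entrez gene ID, among the 44002 rows of the deposited table. Each group was 1 library: testes of BPA-exposed balb/c mice, and testes of balb/c mice for which no treatment is named, both at postnatal day 45. BPA is bisphenol A, a plastics monomer with estrogen-like activity. Each library was made from a mix of 3 samples, and the sources used here give no dose, route or length of exposure. The pool without BPA, called control testes here, was recognised by a title that names no treatment, and the exposed pool is called BPA testes. The listed values stand for 45162887 reads in BPA testes and 41711330 in control testes. No difference below has a replicate check, and none was tested.

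The synaptonemal complex is the protein zipper that holds paired chromosomes together along their length in meiotic prophase. Lateral elements built on SYCP2 and SYCP3 line each chromosome axis, SYCP1 spans the gap as the transverse filament, and the central element proteins SYCE1, SYCE2, SYCE3, SIX6OS1 and TEX12 join the filaments in the middle. HORMAD1 and HORMAD2 coat axes that have not yet synapsed, and the AAA+ ATPase TRIP13 is needed to remove them once synapsis has formed. In the testis this machinery belongs to spermatocytes, and male mice that lack its main components are sterile.

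No member differed between the libraries by more than 1.20-fold. The 10 genes summed to 1031 CPM in BPA testes and 1032 CPM in control testes, where CPM is reads scaled by the authors to a common total. These sums stand for 46778 reads of the BPA pool and 43156 of the control pool, a ratio of 0.999 (95% counting interval 0.986 to 1.01). The member farthest apart was Trip13, 1.20-fold higher in BPA testes, and the member farthest apart in the other direction was Sycp3, at 0.891 of its control level. By the size rule, a log2 ratio of BPA over control of at least 1 in size (2-fold), 0 of 10 members were higher and 0 were lower. Over all 19389 genes with at least 1 CPM in either pool, 1.32% were higher and 1.95% lower, 3.28% in all. At 1.5-fold the members' count was also 0, against 9.64% of all genes. Every member stood above 10 CPM in both pools, where fewer genes were 2-fold or more apart. The share was 0.858% of genes with a mean from 10 to 100 CPM and 0.0833% of those of 100 CPM or more. For 1.5-fold the share was not taken by level, so 9.64% includes genes of lower level than any member. A count of 0 in 10 genes is close to all these background shares. In bulk RNA, fewer spermatocytes and less RNA per spermatocyte cannot be told apart.

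**Figure D1:**
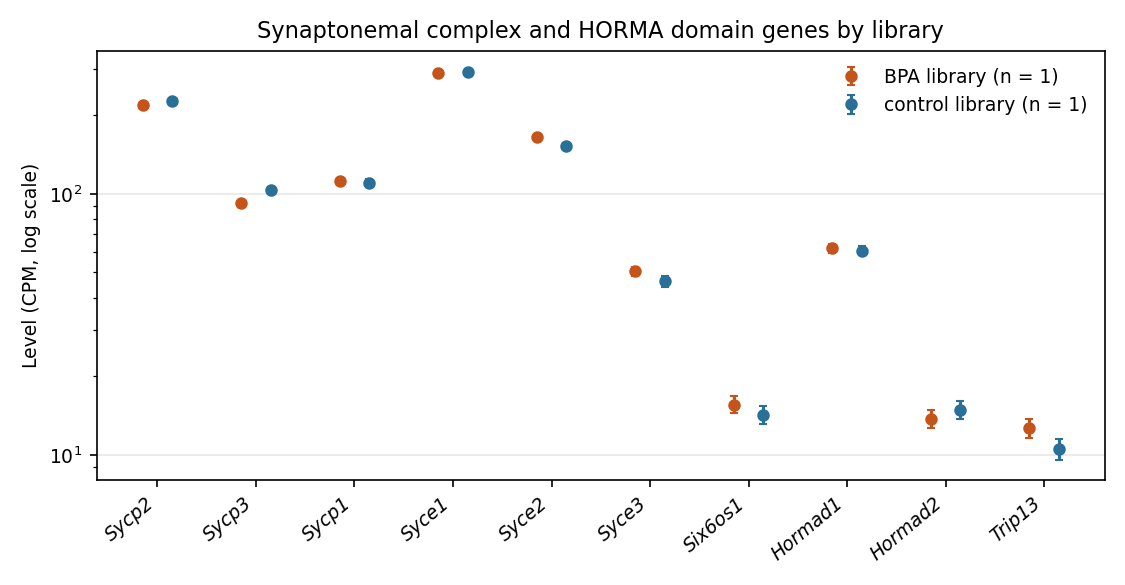
Level of each member in CPM (log axis) in BPA testes and control testes, with 95% counting (Poisson) intervals of the reads. The points of both libraries lie side by side for all 10 genes, from 289 CPM for Syce1 to 12.6 CPM for Trip13 in BPA testes.

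Stretches before a listed transcript start are shown for members with and without the E-box CACGTG, the letters read by basic helix-loop-helix factors such as MAX, whose partner MGA is known for silencing germline genes outside the germ line. Capitals mark CACGTG. The sequences are from RefSeq on GRCm38.p6 and run 5′ to 3′ on the strand of the gene. Sycp1 (chr3:102936101-102936350, minus strand), Hormad1 (chr3:95559427-95559676, plus strand) and Syce1 (chr7:140787855-140788104, minus strand) are shown with the 250 bases before the start. For Sycp3 (chr10:88459337-88459568, plus strand) 232 bases are shown, without the 18 nearest the start, which GENCODE annotates as exon, and for Six6os1 (chr12:72917919-72917948, minus strand) and Syce2 (chr8:84872158-84872187, plus strand, before the second of its listed starts) 30 bases around the E-box. The starts used for Six6os1 and Syce2 lie inside the gene as RefSeq gives it, so these 30 bases are downstream of the outermost start. GENCODE exons of the gene itself cover 141 of the 250 bases before that start in Six6os1 and 143 in Syce2. For Sycp2, Hormad2 and Trip13 the start searched also lies inside the gene. Part of the 250 bases before their outermost start was therefore not searched. The windows searched for Sycp2, Hormad2, Trip13 and 1 start each of Syce3 and Hormad1 also hold exon bases, which for Trip13 are those of Trip13 and Brd9.
Sycp1: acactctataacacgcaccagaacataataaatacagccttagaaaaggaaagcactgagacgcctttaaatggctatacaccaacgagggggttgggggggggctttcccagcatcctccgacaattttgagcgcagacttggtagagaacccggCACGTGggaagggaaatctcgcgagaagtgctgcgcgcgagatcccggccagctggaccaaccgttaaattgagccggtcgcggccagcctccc
Hormad1: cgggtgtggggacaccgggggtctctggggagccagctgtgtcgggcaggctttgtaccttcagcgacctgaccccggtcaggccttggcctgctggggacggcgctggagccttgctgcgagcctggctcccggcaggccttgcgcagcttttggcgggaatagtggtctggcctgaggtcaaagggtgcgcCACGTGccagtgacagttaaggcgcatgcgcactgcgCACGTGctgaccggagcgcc
Sycp3: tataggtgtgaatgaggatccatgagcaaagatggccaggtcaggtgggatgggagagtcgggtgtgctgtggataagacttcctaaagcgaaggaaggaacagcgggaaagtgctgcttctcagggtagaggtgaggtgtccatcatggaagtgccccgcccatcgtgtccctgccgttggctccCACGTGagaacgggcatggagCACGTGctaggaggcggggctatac
Syce1: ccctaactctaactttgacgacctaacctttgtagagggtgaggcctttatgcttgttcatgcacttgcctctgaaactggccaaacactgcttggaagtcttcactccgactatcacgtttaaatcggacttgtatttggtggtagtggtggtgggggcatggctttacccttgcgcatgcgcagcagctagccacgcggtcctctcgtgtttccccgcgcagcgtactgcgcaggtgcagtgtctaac
Six6os1: actgtggcctacCACGTGgtgcgcggggtc
Syce2: cgtttcattcagCACGTGctcggggcgggg

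Within the 250 bases before a listed start, CACGTG was present in 5 of 10 members, Sycp1, Sycp3, Syce2, Six6os1 and Hormad1, and in 6.86% of the 27025 genes with a listed promoter. Sycp3 and Hormad1 each held 2 copies. In Sycp3 they began 64 and 43 bases before the start, and in Hormad1 57 and 20 bases before it. The copy of Sycp1 began 94 bases before its start and that of Six6os1 171 bases before the inner start listed for it. Neither Syce1 nor Hormad2, Sycp2, Syce3 and Trip13 held those letters in the window. Other motifs were searched on both strands as well. TTCCCGC, the core of sites for E2F factors, was present in 3 of 10 members (Sycp3, Syce2 and Hormad1) and 4.38% of all genes. CNCCTCAG, known for the meiotic initiator STRA8, was present in 2 of 10 (Syce2 and Hormad2) and 7.39% of all genes. AACNGNC, a MYB-type core, was present in 6 of 10 members (Sycp2, Sycp3, Syce1, Syce2, Syce3 and Hormad1) and 30.6% of all genes. Among the members, only 1 pair of different motifs overlapped, CNCCTCAG and TTCCCGC in Syce2. These matches describe the letters of the windows and not binding.

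Lateral element genes were slightly lower in BPA testes. Sycp3 (gene ID 20962, chromosome 10 from 88459587 to 88473236) encodes the coiled-coil protein that forms the fibres of the axis. It stood at 92.2 CPM in BPA testes and 103 CPM in control testes, on 4182 reads from BPA testes and 4324 from control testes. Its ratio of BPA over control was 0.891 (95% counting interval 0.854 to 0.930), a log2 ratio of -0.17. Among the 7578 genes with a mean from 10 to 100 CPM, 28.7% had a log2 ratio larger in size than that of Sycp3. Sycp3 lay near the upper edge of this class, so that share depends on the cut at 100 CPM. The median size of the log2 ratio was 0.10 in this class and 0.056 in genes of 100 CPM or more. Exons of Chpt1, a choline phosphotransferase gene on the other strand, overlap 52.2% of the exon bases of Sycp3, and the labels describe no strand-marking step. Reads from the overlapping bases therefore cannot be assigned to 1 of the genes. Chpt1 itself stood at 87.8 CPM in BPA testes and 83.8 CPM in control testes, a log2 ratio of 0.07, so the levels of the partners lay apart in opposite directions.

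Sycp2 (gene ID 320558, chromosome 2 from 178345295 to 178407776), which encodes the partner that links SYCP3 to the chromosome axis, stood at 219 CPM in BPA testes and 227 CPM in control testes. The ratio was 0.967 (0.940 to 0.994), on 9956 reads from BPA testes and 9487 from control testes. The lateral element genes together came to 312 CPM in BPA testes against 330.4 CPM in control testes, a ratio of 0.943 (0.921 to 0.965). The intervals of Sycp2 and Sycp3 lay below 1, with a percent difference of BPA from control of -3.33% for Sycp2 and -10.9% for Sycp3. How far libraries of the same condition differ was not measured here.

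Sycp1 (gene ID 20957, chromosome 3 from 102818499 to 102936100), the only transverse filament gene, had an interval that held 1. It stood at 112 CPM in BPA testes and 110.4 CPM in control testes, a ratio of 1.01 (0.971 to 1.05). Among 2401 genes whose mean was at least 100 CPM, 86.0% had a log2 ratio larger in size than the 0.01 of Sycp1. Of the 50-base stretches (words) in its transcripts, 5.47% also occur in transcripts of other genes.

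The central element genes held the most abundant member and leaned toward BPA testes in 3 of 4 cases. Syce1 (gene ID 74075, chromosome 7 from 140777229 to 140787854), which encodes a scaffold that binds SIX6OS1, stood at 289 CPM in BPA testes and 292 CPM in control testes. Its ratio was 0.990 (0.965 to 1.01), and it ranked 684 in BPA testes and 674 in control testes among all listed genes by CPM. Syce2 (gene ID 71846, chromosome 8 from 84872111 to 84887446), whose protein builds fibres with TEX12, stood at 164 CPM in BPA testes and 153 CPM in control testes. The ratio of Syce2 was 1.07 (1.04 to 1.11), a log2 ratio of 0.10, and 23.2% of the genes in its class of 100 CPM or more had a larger one in size.

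Syce3 (gene ID 75459, chromosome 15 from 89390174 to 89410503), which encodes a small protein that recruits the other central element proteins, stood at 50.5 CPM in BPA testes and 46.2 CPM in control testes. Its ratio was 1.09 (1.03 to 1.16). Six6os1 (gene ID 75801, chromosome 12 from 72880193 to 72917957), the gene of the partner of SYCE1, stood at 15.6 CPM in BPA testes and 14.2 CPM in control testes. With 707 reads in BPA testes and 594 in control testes its ratio of 1.10 (0.982 to 1.22) had a wider interval than those of the other central element genes, and it included 1. Exons of Six6 on the other strand overlap 3.21% of the exon bases of Six6os1, and Six6 carries no value in the table. Other genes' transcripts hold 0.382% of the words of Six6os1. The 4 central element genes summed to 519 CPM in BPA testes against 506 CPM in control testes, a ratio of 1.03 (1.01 to 1.05).

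Both HORMA domain genes had a ratio whose interval held 1. Hormad1 (gene ID 67981, chromosome 3 from 95559677 to 95587863), whose protein promotes break formation and pairing on unsynapsed axes, stood at 61.9 CPM in BPA testes and 60.7 CPM in control testes, a ratio of 1.02 (0.966 to 1.08). Transcripts of Gm15529 and Gm7167 share 22.9% of the 50-base words of Hormad1, so part of its reads are uncertain. Gm15529 stood at 2.69 CPM in BPA testes and 2.58 CPM in control testes, and Gm7167 was listed at 0 (under 1 CPM) in both. Hormad2 (gene ID 75828, chromosome 11 from 4345801 to 4441198), whose protein brings the kinase ATR to unsynapsed axes, stood at 13.7 CPM in BPA testes and 14.9 CPM in control testes. The ratio of Hormad2 was 0.923 (0.824 to 1.03), and its interval held 1.

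Trip13 (gene ID 69716, chromosome 13 from 73912450 to 73937795), which encodes the ATPase that remodels HORMA domain proteins, was the least abundant member in CPM. It stood at 12.6 CPM in BPA testes and 10.5 CPM in control testes, on 574 reads from BPA testes and 440 from control testes. The ratio was 1.20 (1.06 to 1.36), a log2 ratio of 0.26, and the interval lay above 1. Of the genes with a mean from 10 to 100 CPM, 12.6% had a log2 ratio larger in size. Trip13 lay near the lower edge of this class, where reads are fewest and counting error is widest. TRIP13 is also known to act in the spindle checkpoint of dividing cells.

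**Figure D2:**
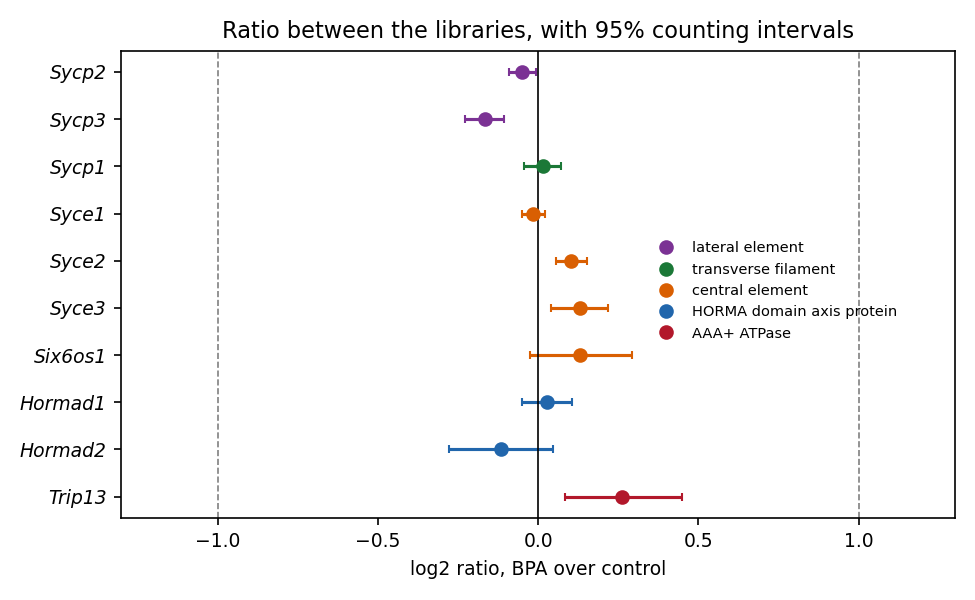
Log2 ratio of BPA over control for each member, ordered and coloured by role, with 95% counting intervals; dashed lines mark 2-fold. All 10 points lie between -0.17 (Sycp3) and 0.26 (Trip13), and the intervals of 5 genes lie on 1 side of 0.

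In all, the interval lay on 1 side of a ratio of 1 in 5 members: below it for Sycp2 and Sycp3, and above it for Syce2, Syce3 and Trip13. These intervals cover counting error only, since PCR copies are not independent molecules and variation between animals or preparations is not in them. The median log2 ratio of the 10 members was 0.02, beside 0.004 over all 19389 genes, and 6 members lay above 0 and 4 below. The authors' deposited table gives p-values from 0.430 for Sycp3 to 0.924 for Syce1, and a q-value of 0.99996 for each of the 10. In the authors' deposited table, 28 of 29279 genes with a q-value (0.0956%) had a q-value under 0.005 and a log2 fold change above 1 in size, and none of them is a member.

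**Figure D3:**
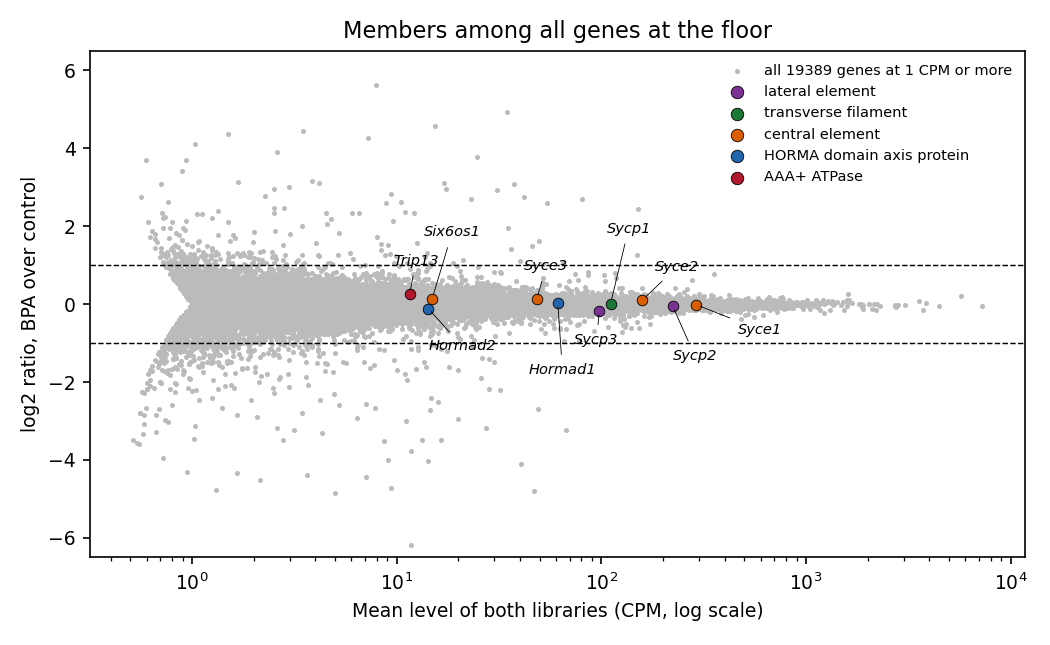
Log2 ratio of BPA over control against the mean level of both libraries (CPM, log axis) for the 19389 genes that reached 1 CPM in either pool (grey) and the 10 members (coloured by role). The members lie within the dense band around 0, inside the dashed lines that mark 2-fold.

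Levels of different genes were compared per kilobase of annotated exon, because longer transcripts give more reads. Syce1 was highest at 198 CPM per kilobase in BPA testes and 200.05 in control testes. Next in BPA testes were Syce3 at 91.4 (87.7 to 95.2), Syce2 at 83.5 (81.6 to 85.4) and Sycp3 at 72.9 (70.7 to 75.2) CPM per kilobase. In the control pool they were Syce3 at 83.5 (79.8 to 87.3), Sycp3 at 81.8 (79.4 to 84.3) and Syce2 at 77.8 (75.9 to 79.7) CPM per kilobase. The counting intervals of Syce3 and Sycp3, and those of Sycp3 and Syce2, overlapped in control testes, so their order there was not resolved.

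Sycp2, Hormad1 and Sycp1 formed the next step. In the BPA pool Sycp2 stood at 36.8, Hormad1 at 35.8 and Sycp1 at 31.4 CPM per kilobase, and the intervals of Sycp2 (36.1 to 37.5) and Hormad1 (34.5 to 37.1) overlapped. In the control pool the levels were 38.0 for Sycp2, 35.1 for Hormad1 and 31.1 CPM per kilobase for Sycp1. The lowest were Hormad2 at 5.01 CPM per kilobase in BPA testes and 5.43 in control testes, Trip13 at 3.64 in BPA testes and 3.03 in control testes, and Six6os1 at 2.60 in BPA testes and 2.38 in control testes. The place of Six6os1 depends on its length: its annotated exons cover 5981 bases, but its longest transcript has 2051, and on that length it stood at 7.60 CPM per kilobase in BPA testes and 6.93 in control testes. Trip13 was then the lowest member in both.

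**Figure D4:**
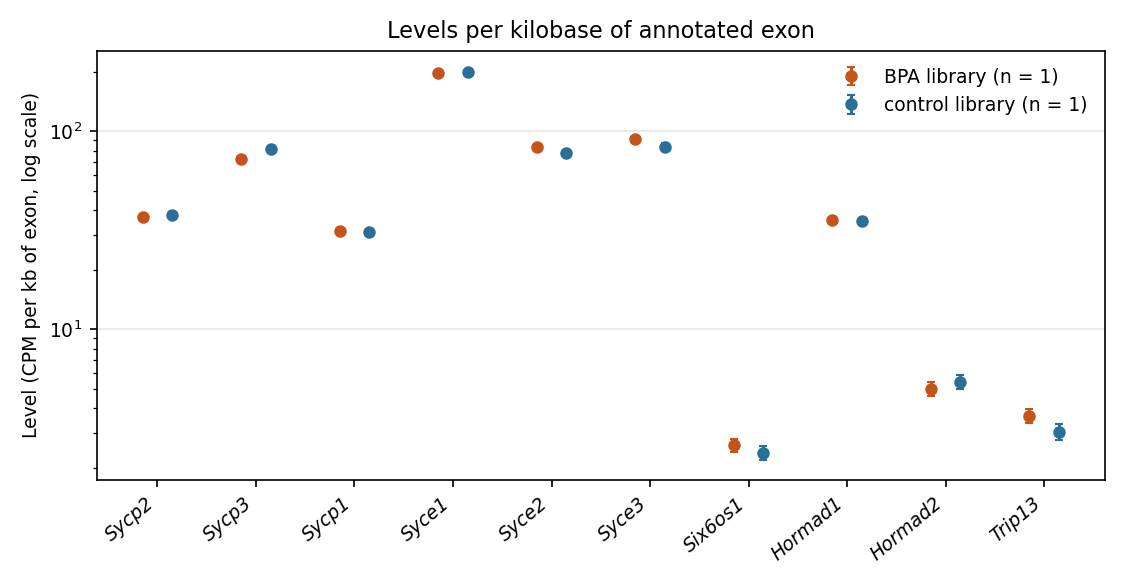
Level of each member in CPM per kilobase of annotated exon (log axis) in BPA testes and control testes, with 95% counting intervals. Syce1 stands above all other members, and Six6os1, Hormad2 and Trip13 stand below 6 CPM per kilobase in both libraries.

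The share of the lateral elements was lower in BPA testes and that of the central elements higher. Of the summed level per kilobase, central element genes took 66.9% in BPA testes and 65.2% in control testes, and lateral element genes took 19.6% in BPA testes and 21.5% in control testes. The transverse filament took 5.59% in BPA testes and 5.56% in control testes, and the HORMA domain genes 7.27% in BPA testes and 7.26% in control testes. Trip13 took 0.649% in BPA testes and 0.543% in control testes. Per kilobase, Hormad1 exceeded Hormad2 by 7.14-fold in BPA testes and 6.46-fold in control testes, and Sycp3 exceeded Sycp1 by 2.32-fold in BPA testes and 2.64-fold in control testes. Sycp2 was at 0.504 of Sycp3 in BPA testes and 0.465 in control testes. Syce2 was at 0.914 of Syce3 in BPA testes and 0.931 in control testes. Syce1 exceeded Trip13 by 54.3-fold in BPA testes and 66.0-fold in control testes, and Six6os1 by 76.0-fold in BPA testes and 84.2-fold in control testes. The ratio to Six6os1 depends on length: on the longest transcripts it was 26.1-fold in BPA testes and 28.9-fold in control testes. That of Hormad1 to Hormad2 was then 5.88-fold in BPA testes and 5.32-fold in control testes. The shared bases of Sycp3 and Chpt1, 52.2% of the exon bases of Sycp3, leave the level of Sycp3 per kilobase, its place in the order and each ratio to it uncertain. All the shares are uncertain as well, because the level of Sycp3 is part of the summed level. Sycp3 alone took 13.0% in BPA testes and 14.7% in control testes, and a lower share of 1 gene raises those of the others.

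Of 4 named partners of the members, the 3 that reached 1 CPM were less than 2-fold apart, beside 3.28% of all genes that were 2-fold or more apart. Tex12, the central element partner of Syce2, stood at 9.34 CPM in BPA testes and 8.23 CPM in control testes, a ratio of 1.14 (0.983 to 1.31). Per kilobase Tex12 reached 9.20 CPM in BPA testes and 8.10 in control testes, below Syce2 in both. Iho1, which encodes a HORMAD1-binding protein needed for meiotic breaks, stood at 18.4 CPM in BPA testes and 16.4 CPM in control testes, a ratio of 1.12 (1.01 to 1.24). Fkbp6, an immunophilin found on the synaptonemal complex and required for male fertility, stood at 43.2 CPM in BPA testes and 40.3 CPM in control testes (ratio 1.07, 1.01 to 1.15). The Sycp2 paralog Sycp2l, known from oocytes, was listed at 0 in both, which stands for any value under 1 CPM.

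Of 51 other meiotic prophase genes, 48 reached 1 CPM; Spo16 was not matched to a gene ID, and Mei4 and Sycp2l were listed at 0. By the size rule 0 of 48 were higher, against 1.32% of all genes, and 1 was lower, against 1.95%: the telomere tether gene Majin, at 2.42 CPM in BPA testes and 4.98 CPM in control testes. Their median log2 ratio was 0.02, beside 0.004 over all genes. Majin, on 110 reads in BPA testes and 208 in control testes, had a ratio of 0.487 (0.383 to 0.617). Its log2 ratio of -1.01 lay at the cut of the size rule. The next largest log2 ratios were those of Mnd1 (-0.53), a recombinase accessory factor, the recombination factor Spata22 (0.47) and the meiotic initiator Stra8 (0.42). Mei1 (-0.35) and Top6bl (0.31), both of the break-forming machinery, followed. Mnd1, Spata22, Mei1 and Top6bl stood below every member in CPM, where counting error is wider. Mnd1 had the most reads of them, 247 in BPA testes and 331 in control testes. Stra8 stood at 14.8 CPM in BPA testes and 11.0 CPM in control testes, a ratio of 1.34 (1.19 to 1.52).

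Markers of the cell types present gave the setting for these values. The 12 spermatocyte markers outside the synaptonemal complex, among them Hspa2 and Piwil1, all lay within 2-fold, with log2 ratios from -0.16 to 0.36 and a median of -0.06. They summed to 9309 CPM in BPA testes and 9414 CPM in control testes. The labelled tissue was checked against germ cell and somatic markers of the testis, and all 8 spermatogonial, 8 round spermatid, 8 elongating spermatid, 10 Sertoli cell and 8 Leydig cell markers reached 1 CPM. Elongating spermatid markers summed to 19236 CPM in BPA testes and 18033 CPM in control testes, with 6 of the 8 log2 ratios above 0 and 2 below. Sertoli cell markers summed to 1016 CPM in BPA testes and 885 CPM in control testes. Most of that sum was Clu, at 816 CPM in BPA testes and 718 CPM in control testes. While 9 of the 10 Sertoli cell markers had a log2 ratio above 0, Rhox8 was lower by the size rule, against 1.95% of all genes. It stood at 1.43 CPM in BPA testes and 9.04 CPM in control testes. Of 8 epididymal markers none reached 1 CPM. Of 9 adipose markers 6 were lower in BPA testes by the size rule, and the 9 summed to 32.5 CPM in BPA testes against 88.8 CPM in control testes. The other 3 lay within 2-fold, with ratios of 0.896 for Adipoq, 0.917 for Plin1 and 1.53 for Cidea. The part of adipose RNA in the values of the members was not tested.

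**Figure D5:**
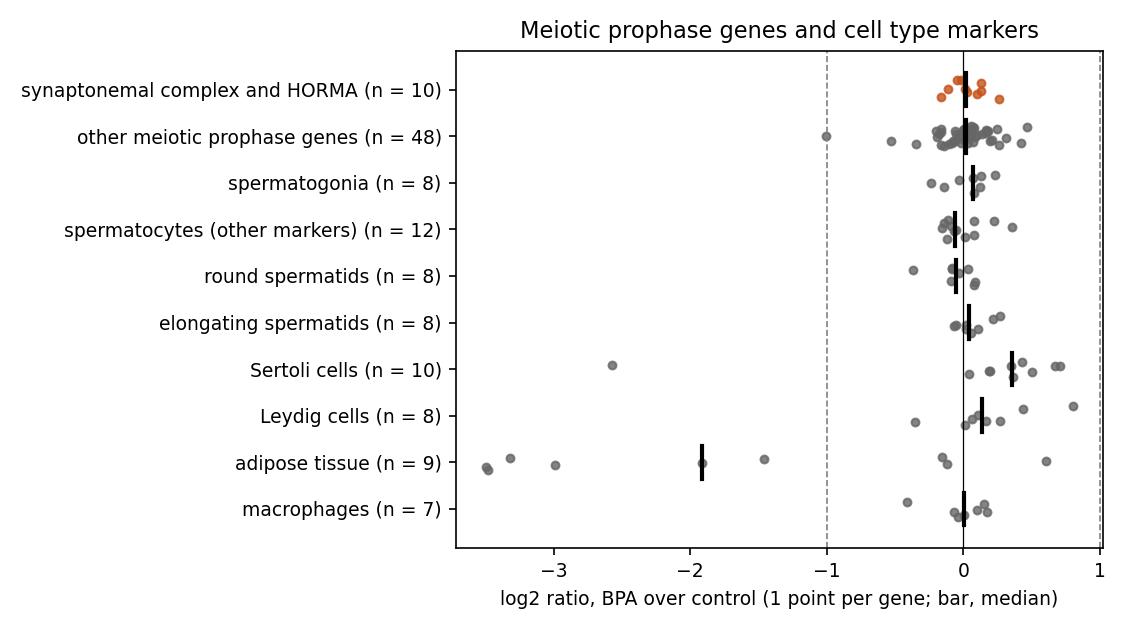
Log2 ratio of BPA over control of each gene (points) and the median (bar) in the synaptonemal complex and HORMA domain genes, the other meiotic prophase genes and the marker lists, with dashed lines at 2-fold. Adipose markers range from -3.50 to 0.60, the Sertoli cell marker Rhox8 lies at -2.58, and the 10 members stay between -0.17 and 0.26.

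Genes near the members on the chromosome were described because earlier results of these data had shown differing genes in stretches. Within 1 Mb of a member's start lay 346 other genes at 1 CPM or more, of which 8 (2.31%) were 2-fold or more apart, beside 3.28% of all genes. None was found near Sycp2, Sycp3, Syce2, Syce3, Six6os1 or Trip13. Near Syce1, 3 of 58 genes were lower in BPA testes: Cyp2e1, 13.4 kb away and with 52 reads in BPA testes against 113 in control testes, Pgghg and Adgra1. Near Hormad1 the genes H3c14 and Gm26553 were higher and Bnipl was lower. Gm40110 near Sycp1 was lower in BPA testes, and Sec14l4 near Hormad2 was higher. Each of these 8 stood at 2.70 CPM or less in both libraries.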

How the data were processed

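RNA of mouse testis was sequenced after oligo(dT) enrichment, fragmentation and random hexamer priming, per the labels' protocols, in 1 library from BPA-exposed and 1 from control mice. The submitters' processing notes name HISAT2 2.0.4, HTSeq 0.6.1 and build mm10. Annotation, strand setting, scaling and the source of the p-values were not stated. In the table the authors deposited, columns headed as read counts hold CPM, summing to 995266 for BPA and 997834 for control, with values under 1 written as 0. The deposited log2 fold change matches the ratio of these values on the log2 scale within 4.98e-05. The p-values and q-values are as the authors deposited them. Other deposited lists hold rows of the same table and were not used here.

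All CPM values above 0 were multiples of a single step in each library, to within 2.33e-10 steps. Taking the step as 1 read gave 45162887 reads for BPA and 41711330 for control. Values written as 0 beside a listed value were refilled from the deposited fold change (812 for BPA and 592 for control), which no member needed. Log2 ratios used a pseudocount of 0.1 CPM; ratios carry exact 95% binomial (Clopper-Pearson) intervals of the reads, and levels exact 95% Poisson intervals. No count model was fitted, because each group is 1 library. Exon lengths, exon overlaps and 50-base words came from GENCODE M21 in place of the planned RefSeq exons; symbols (40269 of 41571 numeric IDs), gene positions and promoters came from RefSeq GRCm38.p6, the build that mm10 names. Computation used Python 3.11.15, pandas 2.3.3 and SciPy 1.17.1. The code for the size rule and intervals was run on simulated reads with counting error only. Such reads cannot test the intervals against PCR copies or variation between animals. All members were named, as were 4 fixed partners, the 6 other prophase genes with the largest log2 ratios and all neighbours 2-fold apart. The members and lists were chosen with earlier results of these data known. Alternatives covered scaling, pseudocount, floor, fold and transcript length.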

Additional observations from a re-analysis of the deposited data

How the results depend on the processing

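No paired analysis was possible because each group has 1 library. Scaling by the listed total, TMM factors or the median ratio, a pseudocount of 1 CPM and the authors' deposited fold changes moved no member's log2 ratio by more than 0.0226 in range or across 0, and no member reached 2-fold, or 1.5-fold, under any setting run. The 635 genes 2-fold or more apart over all genes became 205 with a pseudocount of 1 CPM, 1870 at 1.5-fold (9.64%), 183 with a floor of 4 CPM, and 4520 with the authors' deposited fold changes, which hold no floor or pseudocount. A different floor also changes the set of genes counted, so 183 and 4520 do not share a base with 635. Taking values listed as 0 as 0, an alternative chosen after seeing the data, gave 1623. The medians of the members and of the other prophase genes at a floor of 4 CPM, also chosen after seeing the data, kept their sign. On the length of the longest transcript, levels in BPA testes became 32.5 CPM per kilobase for Sycp1, 38.4 for Sycp2, 78.8 for Sycp3, 97.5 for Syce2, 105 for Syce3, 7.60 for Six6os1, 41.0 for Hormad1 and 6.96 for Hormad2. In control testes they became 32.1 for Sycp1, 39.7 for Sycp2, 88.5 for Sycp3, 90.8 for Syce2, 96.2 for Syce3, 6.93 for Six6os1, 40.2 for Hormad1 and 7.54 for Hormad2, because shorter lengths raise the level. Hormad1 then stood above Sycp2. Depth limits Trip13, Hormad2 and Six6os1 most, with 440 to 707 reads per library.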
